A study of Drosophila melanogaster with 6 samples.

Results

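The 32 genes described here act in female meiosis of Drosophila melanogaster, from the cutting of chromosomes to their separation on the oocyte spindle. They were taken by name from a table of 17457 features measured in ovaries: 30 were found by their symbol, and narya and nenya, listed under older symbols (CG12200 and CG31053), were found by their FlyBase identifiers. RNA was sequenced in 6 ovary samples. In 3 of them the germline overexpressed Sam-S, the enzyme that makes the methyl donor S-adenosylmethionine, from a UASp-Sam-S construct switched on by nanos-gal4. The 3 controls carried the same nanos-gal4 driver but an empty docking site in place of the construct, so both groups hold the driver. Each group has 1 sample in each of 3 batches. The labels give no age, strain or number of flies per sample. The driver acts in germ cells, whereas an ovary also holds follicle cells and muscle, whose RNA is in every value. The study's comparison is between these 2 groups of ovaries.

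Female meiosis begins in the germarium, at the tip of each ovariole, where a germline cyst forms and a few of its cells start to pair their chromosomes. There the synaptonemal complex zips homologous chromosomes together, programmed double-strand breaks are cut and repaired from the homologue, and some repairs become crossovers. The crossovers and the cohesion between sister chromatids hold the homologues together until the oocyte, by then large, builds a spindle without centrosomes. The germarium is a small part of the ovary, so transcripts confined to it are diluted in RNA of the whole organ, while transcripts that nurse cells load into the oocyte for the embryo can be abundant.

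Values are TPM, a transcript abundance corrected for gene length and scaled to the same total in each sample (999999.74 to 1000000.24 here), so levels can be compared between genes. TPM keeps no sequencing depth, and the precision behind single values is unknown. Sam-S checked the labels: it was at 483.3 to 512.3 TPM in controls and 1443 to 1572 TPM with the construct, 3.05-fold higher (log2 fold change 1.61, limma adjusted p = 2.79e-06). Germline markers were present, with vas, a germ-cell RNA helicase, between 249.1 and 303.5 TPM in all samples. Of 8 testis markers, 4 were at 0 in every sample and the summed level of all 8 was at most 1.5 TPM. In bulk tissue, fewer cells of a type and less RNA per cell cannot be told apart. Nothing in the labels says whether the 3 samples of a group came from separate cultures, so p-values measure the spread between these samples only.

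The members spanned more than 3 orders of magnitude. Mean TPM over the 6 samples was 10 or more for 19 genes, between 1 and 10 for 9, and under 1 for 4, and no member was at 0 in any sample. The most abundant was lok (445.2 TPM), which encodes the checkpoint kinase Chk2, and it alone made up 35.3% to 36.9% of the members' summed TPM. Next came the 3 spindle motors ncd (97.9), nod (88.3) and sub (82.2 TPM), then the nuclease gene mus81 (70.6 TPM). At the bottom were narya (0.78), sunn (0.39), ord (0.32) and hdm (0.19 TPM). In the ranked list, neighbouring genes had overlapping ranges over the 6 samples in 24 of 31 pairs. Neighbours did not overlap below lok, mus81, mei-9, spn-B, spn-D, mei-41 and solo. At 5 of these places, below lok, mus81, spn-D, mei-41 and solo, every gene above was also clear of every gene below. At the others genes farther apart still overlapped: c(3)G, at 18.2 to 37.2 TPM, reached up into the values of mei-9, and nenya, at up to 20.0 TPM, met spn-B, which went down to 19.7 TPM. Spread between controls grew as levels fell: the median coefficient of variation was 7.67% for the 19 abundant genes, 14.9% for the 9 intermediate ones and 39.2% for the 4 lowest.

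**Figure D1:**
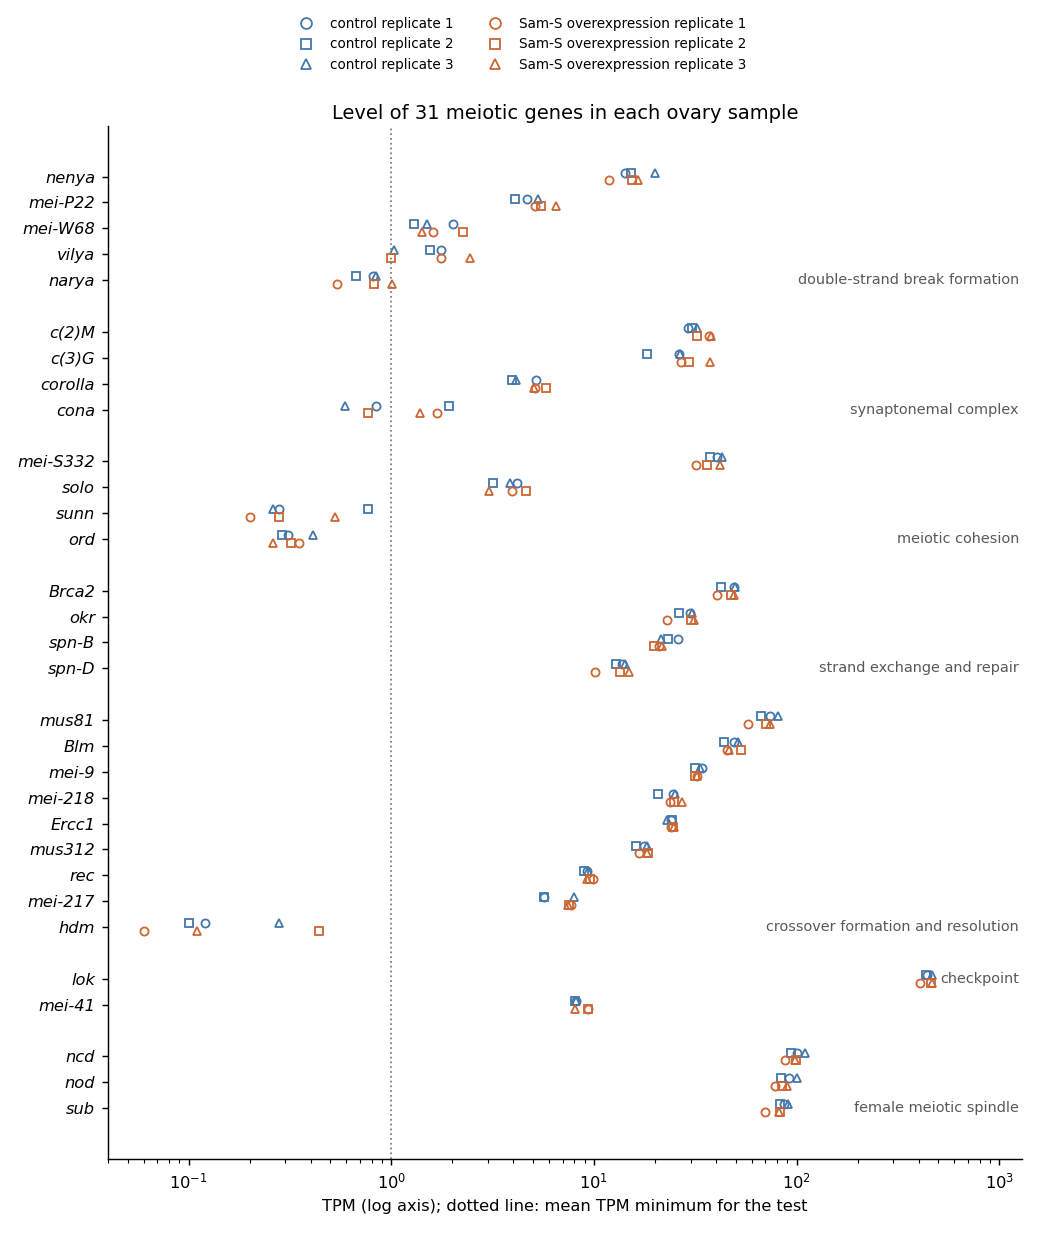
TPM of 31 meiotic genes on a log axis, by role, with 1 symbol per sample (blue: control, orange: Sam-S overexpression; circle, square and triangle: replicates 1, 2 and 3) and a dotted line at 1 TPM. Control and overexpression symbols lie over each other for nearly all genes, lok stands alone near 445.2 TPM, and ord, sunn, hdm and narya have means under 1 TPM.

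Of the 32 members, 28 had a mean TPM of at least 1 and were tested, in a fit over all 7855 such features on the log2(TPM + 1) scale. With Sam-S overexpression 0 of the 28 changed at a limma adjusted p under 0.05, and 22 of all features did (0.28%). At an unadjusted p under 0.05 there were 2 members higher, c(3)G and c(2)M, against 3.62% of all features, and 0 lower, against 2.97%. An FDR under 0.05 in the authors' deposited table was given to none of the 32 members, a count of 0, and to 0.699% of all features. The authors' deposited table gave an unadjusted p under 0.05 to 2 members that were higher, c(3)G and c(2)M (2.81% of features), and to 1 that was lower, sub (1.43% of features). The shares from the deposited comparison are over all 17457 features, of which 12181 were above 0 TPM in at least 1 sample. Those from limma are over the 7855 tested, so the 2 kinds of share have different bases. The median log2 fold change of the tested members was 0.02, beside -0.01 over all tested features, and 15 were above 0 and 13 below. Log2 fold changes of the members ran from -0.17 for spn-B to 0.39 for c(3)G.

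A p that misses the threshold does not show that levels were the same, and the 95% intervals say how large a difference the data still allow. All 28 intervals lay between -1 and 1 on the log2 scale, which leaves out a doubling or a halving of TPM + 1. For genes near 1 TPM the added 1 shrinks differences, and the intervals of cona and vilya still allow a doubling of TPM itself. For 20 of the 28 they lay between -0.5 and 0.5. The narrowest reached 0.14 to each side of the estimate (lok, with mei-9 almost equal) and the widest 0.65 (cona).

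**Figure D2:**
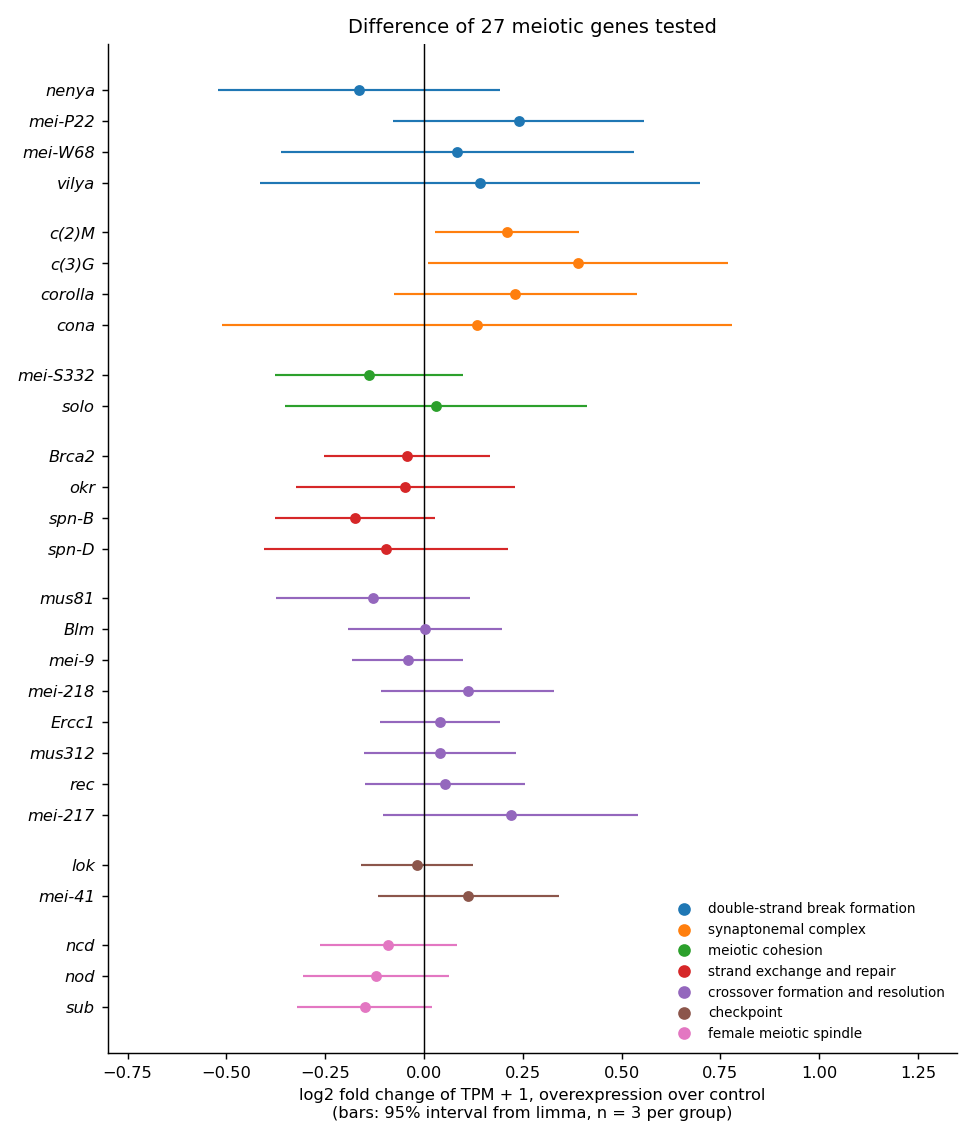
Log2 fold change of TPM + 1, overexpression over control, for 27 of the meiotic genes tested, coloured by role, with 95% intervals from limma (n = 3 per group). All intervals lie between -1 and 1, and those of c(3)G and c(2)M are the only ones whose lower end is above 0.

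The 4 structural genes of the synaptonemal complex all had higher means with Sam-S overexpression, by 14.3% to 31.7% in TPM, and none passed the adjusted threshold. They are c(3)G, whose protein spans the gap between homologues as the transverse filament; c(2)M, a kleisin-like protein of the lateral element; and cona and corolla, which build the central region with c(3)G. The gene c(3)G (FBgn0000246, 3R, 15789473 to 15792579, minus strand) was at 26.27, 18.23 and 26.63 TPM in control replicates 1, 2 and 3 and at 26.88, 29.60 and 37.21 TPM in overexpression replicates 1, 2 and 3. All overexpression values were above all control values, but the gap was narrow, from 26.63 to 26.88 TPM, and control replicate 2 stood well below the other controls. Groups that do not overlap in this direction made up 6.25% of all tested features, and 5.6% did not overlap in the opposite direction; c(3)G was the 1 member of either kind. Its log2 fold change was 0.39 (95% interval 0.01 to 0.77, SE 0.16, adjusted p = 0.740 in limma). Taken batch by batch it was 0.03, 0.67 and 0.47 in batches 1, 2 and 3. The unadjusted p of 0.0452 in limma became 0.0693 with no filter on low values, 0.0687 without the trend in the variance, 0.146 without control replicate 2, 0.0620 without overexpression replicate 2 and 0.155 without overexpression replicate 3. In all other settings the unadjusted limma p of c(3)G was between 0.0175 (replicate block) and 0.0451 (pseudocount of 0.1). With no filter, and likewise without the trend, c(2)M was the 1 member left at an unadjusted p under 0.05.

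c(2)M (FBgn0028525, 2L, 16303264 to 16305940, plus strand) gave 28.98, 30.58 and 32.41 TPM in controls and 36.84, 32.40 and 37.75 TPM with overexpression. Here the groups met at a single point, 32.41 against 32.40 TPM, and the difference was positive in all 3 batches (0.34, 0.08 and 0.21 on the log2 scale). A difference of 1 sign in all 3 batches was found for 4 of the 28 tested members, c(3)G, c(2)M and mei-P22 upward and mei-S332 downward, and for 23.7% of all tested features. The log2 fold change was 0.21 (SE 0.08, 95% interval 0.03 to 0.39, limma adjusted p = 0.642, the smallest of any member; unadjusted p = 0.0293). That unadjusted p was between 0.0101 and 0.109 when single samples were left out, and above 0.05 without control replicate 1, control replicate 2, overexpression replicate 1 or overexpression replicate 3.

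corolla (FBgn0267967, X) was far less abundant, at 5.17, 3.94 and 4.14 TPM in controls and 5.10, 5.82 and 5.09 TPM with overexpression, and the groups overlapped through control replicate 1. The log2 fold change was 0.23 (SE 0.13, limma adjusted p = 0.884), with -0.02, 0.47 and 0.24 in batches 1, 2 and 3. The least abundant of the 4, cona (FBgn0038612, 3R), varied from 0.59 to 1.93 TPM in controls and from 0.77 to 1.69 TPM with overexpression. Its controls alone cover the whole overexpression range, and its log2 fold change of 0.13 had a standard error of 0.28. Summed over the 4 genes, TPM was 54.7 to 63.8 in controls and 68.6 to 81.4 with overexpression, a ratio of 1.23 that rests mostly on c(3)G and c(2)M and is given without a test. The ratio of c(3)G to c(2)M overlapped between groups; its mean and SD were 0.77 ± 0.16 in control ovaries (n = 3) and 0.88 ± 0.13 in overexpressing ones (n = 3).

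**Figure D3:**
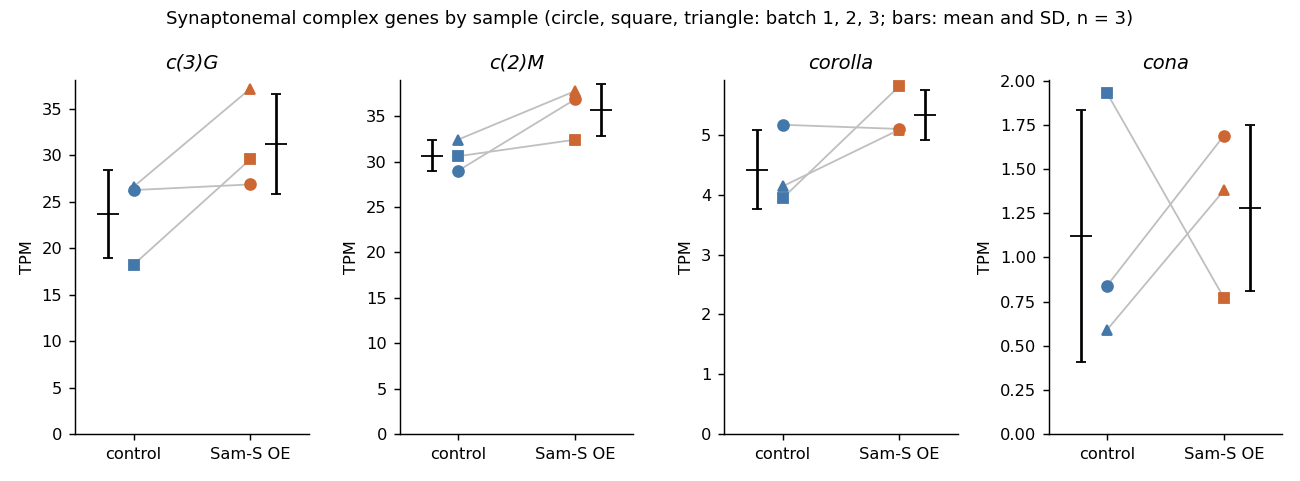
TPM of c(3)G, c(2)M, corolla and cona in each sample, from 0; grey lines join control (blue) and overexpression (orange) samples of the same batch (circle 1, square 2, triangle 3), and black bars give mean and SD (n = 3). c(3)G and c(2)M are higher with overexpression in all 3 batches, whereas corolla is slightly lower in batch 1 and cona is lower in batch 2.

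Values of some germline markers were also higher with overexpression. Of 10 germline markers 9 were tested and 0 passed the adjusted threshold; 3 had values that did not overlap and were higher with overexpression (6.25% of all tested features), namely osk and grk, oocyte mRNAs of axis patterning, and orb, an oocyte RNA-binding protein. grk was at 20.6 to 23.3 TPM in controls and 25.2 to 27.2 TPM with overexpression (log2 fold change 0.23, limma adjusted p = 0.549), osk at 938.6 to 981.3 and 1025 to 1070 TPM, and orb at 235.4 to 250.8 and 256.8 to 269.8 TPM. The summed level of the 10 was 2419 to 2470 TPM in controls and 2499 to 2545 TPM with overexpression. The largest part of that sum is osk, and the next markers in level, otu, vas and nos, had lower means with overexpression. bam, a marker of dividing cysts just before meiosis, overlapped between groups (31.1 to 34.5 and 31.3 to 39.1 TPM), as did vas and nos, and bgcn stayed under 1 TPM throughout. Of the 9 tested, 4 had log2 fold changes below 0 (vas, nos, otu and BicD), the median was 0.02, and 0 were lower without overlap. The part of these shifts in the synaptonemal complex values was not tested.

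Genes for double-strand break formation were low, apart from nenya. The break is made by mei-W68, the fly Spo11, with its partner mei-P22, and it also needs the RING-domain proteins vilya, narya and nenya. mei-W68 (FBgn0002716) was at 1.29 to 2.01 TPM in controls and 1.42 to 2.25 TPM with overexpression. It lies inside par-1 and shares 35.0% of its exon bases with that gene on the same strand; par-1 was at 177.7 TPM in controls, so part of the small mei-W68 signal could be assigned either way. mei-P22 was at 4.65, 4.09 and 5.30 TPM in controls and 5.11, 5.49 and 6.53 TPM with overexpression, higher in all 3 batches but overlapping between groups (log2 fold change 0.24, SE 0.14, limma adjusted p = 0.884). vilya ranged from 1.03 to 1.75 TPM in controls and from 1.00 to 2.46 TPM with overexpression.

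The paralogues narya and nenya differed strongly in level. narya was at 0.81, 0.67 and 0.84 TPM in controls and 0.54, 0.82 and 1.01 TPM with overexpression, below the minimum for the test. nenya was at 14.2, 15.3 and 20.0 TPM in controls and 11.9, 15.4 and 16.5 TPM with overexpression, many times higher than narya in every sample. nenya overlapped between groups (adjusted p = 0.948 in limma for a log2 difference of -0.16, SE 0.16). Each of the 2 genes lies within a larger gene without sharing exon bases with it.

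Cohesion genes divided into 3 that were scarce and 1 that was abundant. ord, sunn and solo encode the meiosis-specific proteins that keep sister chromatids together at centromeres and along arms, and mei-S332, the fly shugoshin, protects centromeric cohesion until the second division. ord gave 0.31, 0.29 and 0.41 TPM in controls and 0.35, 0.32 and 0.26 TPM with overexpression, and sunn was between 0.20 and 0.77 TPM in all samples; neither reached the minimum for the test. mei-S332 was at 40.6, 37.3 and 42.8 TPM in controls and 31.9, 36.0 and 41.9 TPM with overexpression. It was lower in all 3 batches, with log2 differences of -0.34, -0.05 and -0.03, and its groups overlapped (log2 fold change -0.14, SE 0.10, limma adjusted p = 0.926). solo was at 4.18, 3.19 and 3.84 TPM in controls and 3.94, 4.63 and 3.03 TPM with overexpression. solo lies within vas and shares 16.9% of its exon bases with it, and vas was 58.8 to 83.6 times as abundant, so the level of solo depends on how the shared reads were assigned, which is not given in the sources used here.

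The strand-exchange genes described here, spn-B, spn-D, okr and Brca2, number 4; all had a mean of 10 TPM or more and a slightly lower mean with overexpression, with overlapping groups. Their proteins help the cut ends to find and copy the homologue: okr is a DNA-dependent motor of the Swi2/Snf2 family, Brca2 is the fly relative of the human breast cancer gene, and spn-B and spn-D are repair proteins needed in the germline. Brca2, the most abundant, was at 48.9, 42.6 and 49.9 TPM in controls and 40.6, 47.5 and 49.1 TPM with overexpression. spn-D, the least abundant, was at 13.8, 12.9 and 14.3 TPM in controls and 10.2, 13.5 and 14.8 TPM with overexpression. In both, overexpression replicate 1 was the lowest sample and the others mixed with the controls. Log2 fold changes of these 4 genes ran from -0.17 to -0.04. spn-B was at the low end (controls 26.1, 23.2 and 21.5 TPM, overexpression 20.9, 19.7 and 21.6 TPM, SE 0.09, limma adjusted p = 0.847). okr was at 26.4 to 30.4 TPM in controls and 23.0 to 31.3 TPM with overexpression.

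The 9 crossover genes held the least and some of the most abundant members. mei-217, mei-218 and rec form the mei-MCM complex, which protects crossover intermediates from the Blm helicase. mei-9 and Ercc1 form a nuclease that makes crossovers together with mus312 and hdm, and mus81 is a separate nuclease for branched DNA. Nuclease partners mei-9 and Ercc1 were at similar levels, with a ratio of mei-9 to Ercc1 of 1.39 (SD 0.09) in the 3 controls and 1.31 (SD 0.03) in the 3 overexpression samples. mei-9 was at 31.4 to 34.0 TPM and Ercc1 at 22.8 to 24.95 TPM over all 6 samples. hdm, by contrast, was at 0.12, 0.10 and 0.28 TPM in controls and 0.06, 0.44 and 0.11 TPM with overexpression, too low for the test. mus81 was at 73.8, 66.7 and 80.6 TPM in controls and 57.3, 70.9 and 74.2 TPM with overexpression (log2 fold change -0.13, SE 0.11, limma adjusted p = 0.934), with overlapping groups. Blm averaged 48.2 TPM (SD 3.88) in the 3 controls and 48.3 TPM (SD 4.19) in the 3 overexpression samples, and rec 9.18 TPM (SD 0.22) and 9.57 TPM (SD 0.31). Of all members rec shared the largest part of its exon bases, 26.6%, with a gene on the opposite strand, alpha-Man-IIb, which was at 36.6 TPM in controls; 18 members share some. The libraries were stranded, but whether reads were counted by strand is not given in the sources used here.

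The values of 3 crossover genes depend on loci they share. mei-217 (FBgn0028581, X, 17136578 to 17142990, minus strand) and mei-218 (FBgn0002709, X, 17135985 to 17142990, minus strand) are annotated on overlapping transcripts. All of mei-217's 5005 exon bases are also exon bases of mei-218, and they make up 79.3% of the 6310 of mei-218. mei-217 was at 5.64, 5.64 and 7.99 TPM in controls and 7.69, 7.55 and 7.43 TPM with overexpression; control replicate 3 was the highest sample, so the groups overlapped (log2 fold change 0.22, SE 0.14, limma adjusted p = 0.896). mei-218 was at 24.4, 20.6 and 25.2 TPM in controls and 23.8, 24.8 and 27.3 TPM with overexpression (log2 fold change 0.11, SE 0.09, limma adjusted p = 0.935). The ratio of mei-218 to mei-217 lay between 3.10 and 4.33 over the 6 samples, and its groups overlapped. mus312 likewise lies wholly on exons of CG42307, a gene at 42.2 TPM in controls and 46.0 TPM with overexpression. mus312 itself was at 16.1 to 18.3 TPM in controls and 16.7 to 18.5 TPM with overexpression. In such pairs the split of reads between genes was set by the authors' counting, which is not given in the sources used here.

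**Figure D4:**
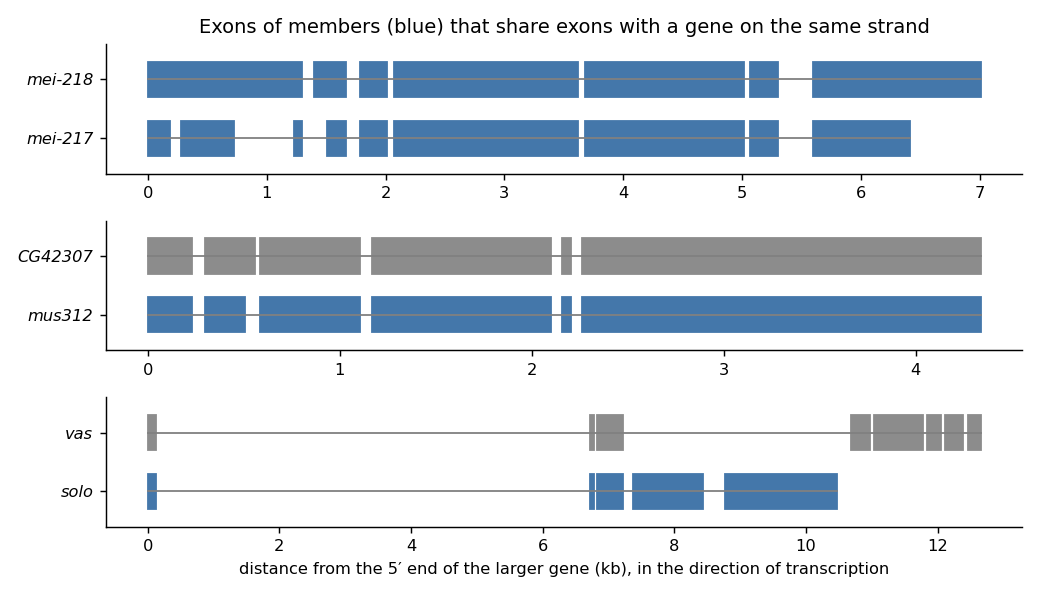
Exon maps of 3 loci in the BDGP6.54 annotation, drawn to scale as distance in kb from the 5′ end of the larger gene, with boxes for merged exons; meiotic members are blue and CG42307 and vas grey. All exons of mei-217 fall on exons of mei-218, all of mus312 on CG42307, and solo shares its first exons with vas.

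Both checkpoint kinases were expressed, at very different levels. mei-41, the fly ATR, signals unrepaired breaks, and lok acts downstream in the germline response to them. lok was at 441.1, 434.6 and 467.2 TPM in controls and 405.9, 459.0 and 463.3 TPM with overexpression, which is a log2 difference of -0.02 with a 95% interval from -0.16 to 0.12 (limma adjusted p = 0.982). mei-41 was at 8.18, 8.10 and 8.20 TPM in controls and 9.36, 9.34 and 8.06 TPM with overexpression. Overexpression replicates 1 and 2 lay above all controls and replicate 3 below them, so the groups overlapped (log2 fold change 0.11, SE 0.10, limma adjusted p = 0.944). lok was 43.4 to 57.5 times as abundant as mei-41 in TPM.

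The 3 spindle motors were abundant and had lower means with overexpression, with differences in TPM of -6.17% for ncd, -8.31% for nod and -9.79% for sub, and none passed the test. ncd bundles microtubules and focuses spindle poles, sub organises the central spindle, and nod holds chromosomes that lack a crossover on the spindle. ncd was at 99.9, 93.7 and 109.5 TPM in controls and 87.1, 99.6 and 97.7 TPM with overexpression. sub was at 86.7, 82.6 and 90.1 TPM in controls and 69.8, 82.7 and 81.5 TPM with overexpression (log2 fold change -0.15, SE 0.07, limma adjusted p = 0.836). For sub, overexpression replicates 1 and 3 lay below all controls and replicate 2 just above the lowest of them. Control replicate 2 was the lowest control for all 3 motors. For sub the authors' deposited table gives a log2 fold change of -0.15, an unadjusted p of 0.0468 and an FDR of 1. nod was at 83.4 to 100.9 TPM in controls and 78.5 to 89.9 TPM with overexpression.

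In the authors' deposited table c(3)G had a log2 fold change of 0.40, an unadjusted p of 0.00376 and an FDR of 0.290, the lowest FDR of the members. The same table gives c(2)M a log2 fold change of 0.22, an unadjusted p of 0.0179 and an FDR of 0.729. Both analyses used the same 6 samples, so these values are not independent of the limma fit.

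Low and high values of the members gathered in certain samples. Overexpression replicate 1 was the lowest sample for 13 of the 32 members and control replicate 2 for 9. Control replicate 3 was the highest for 10 and overexpression replicate 3 for 9. The share of all tested features that were highest in these samples was not computed, so the counts of highest values describe the members only. The low values in overexpression replicate 1 were not limited to meiotic genes: of the tested members 35.7% had their lowest value there, and of all tested features 39.8%. For control replicate 2 the shares were 32.1% of tested members and 19.1% of all tested features. In overexpression replicate 1 the vitelline membrane gene Vm26Aa, made by follicle cells late in oogenesis, was at 7266 TPM, against 3994 to 5916 TPM in the other samples. Over the whole list of 11 follicle cell markers the summed level was 16607 to 20327 TPM in controls and 14550 to 24709 TPM with overexpression, and that of 8 muscle markers 541.2 to 622.0 and 545.7 to 602.2 TPM. Most of the muscle sum is Tm1, a tropomyosin at 406.5 to 446.8 TPM. Of the 7 muscle markers tested 6 had log2 fold changes above 0, with a median of 0.15, and 0 passed the adjusted threshold. Among them bt, at 1.15 to 1.29 TPM in controls and up to 1.76 TPM with overexpression, was higher without overlap (log2 fold change 0.24), and wupA had a log2 fold change of 0.29. The follicle cell gene Yp3, a yolk protein, passed the threshold in the fit without overexpression replicate 1 (log2 fold change -0.48, limma adjusted p = 0.0182), and not in the fit of all samples (-0.34, limma adjusted p = 0.585). The other yolk protein genes listed, Yp1 and Yp2, went the other way in the fit of all samples. Their log2 fold changes were 0.33 and 0.37 (limma adjusted p = 0.779 and 0.617). Of the 10 follicle cell markers tested, 6 were above 0 and 4 below. The part of these differences in the meiotic values was not tested. Several differences below 0 among the members were smaller without overexpression replicate 1. Leaving it out moved the log2 fold change of sub from -0.15 to -0.07, that of nod from -0.12 to -0.07 and that of ncd from -0.09 to -0.03. In the same fit mei-S332 went from -0.14 to -0.05, mus81 from -0.13 to -0.02 and nenya from -0.16 to -0.03. spn-D, okr and Brca2 changed sign, to 0.05, 0.09 and 0.04. Leaving out control replicate 2 instead moved all of these genes further below 0. In that fit sub was at -0.18, nod at -0.19, ncd at -0.14, mei-S332 at -0.19, mus81 at -0.20 and nenya at -0.21.

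Other genes of the same processes were looked up from 3 lists, and 0 of their 103 tested genes changed at an adjusted p under 0.05 in limma. Among 36 other genes of break repair and checkpoints, 0 were higher and 1 lower at an unadjusted p under 0.05, beside 3.62% and 2.97% of all tested features, and the median log2 fold change was -0.06. Of these, Lig4 (listed as DNAlig4), the ligase of end joining, was lower (21.9 and 18.4 TPM on average, limma adjusted p = 0.543), mre11, which processes broken ends, was at 51.0 and 55.6 TPM (adjusted p = 0.762), and RPA2, which binds single-stranded DNA, was at 227.3 and 209.8 TPM (adjusted p = 0.851). Among 39 genes of cohesion, kinetochores and chromosome segregation, 1 was higher and 1 lower at an unadjusted p under 0.05, and the median was -0.07. These were Cap-H2, a condensin II subunit (9.94 and 11.97 TPM, limma adjusted p = 0.585), and aurB, the Aurora B kinase (76.3 and 67.0 TPM, adjusted p = 0.751), followed by mad2, a spindle checkpoint gene (223.6 and 205.6 TPM, adjusted p = 0.818). Among 28 further spindle genes, 1 was higher and 1 lower, and the median was -0.07. They were Axs, a membrane protein around the meiotic spindle (17.3 and 19.6 TPM, limma adjusted p = 0.722), and gammaTub37C, the maternal gamma-tubulin (170.3 and 153.8 TPM, adjusted p = 0.585), followed by msd1, an augmin subunit that helps nucleate spindle microtubules (105.3 and 91.9 TPM, adjusted p = 0.818). Log2 fold changes were below 0 for 26 of 36, 35 of 39 and 22 of 28 genes of the 3 lists. Over all 7855 features tested, 4396 were below 0. The batches did not share this sign: in each of the 3 lists most genes were below 0 in batches 1 and 3 and above 0 in batch 2. Values that did not overlap between groups were found, higher and lower, for 1 and 2 of the 36 repair genes, 1 and 1 of the 39 segregation genes and 1 and 5 of the 28 spindle genes, beside 6.25% and 5.6% of all tested features. The genes of a list vary together between samples, so these counts describe the lists and are no test.

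**Figure D5:**
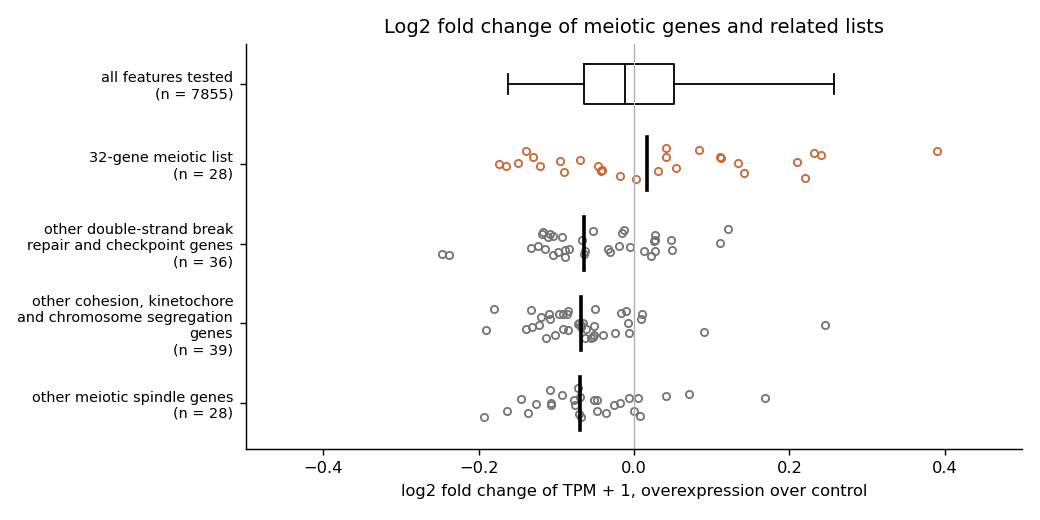
Log2 fold change of TPM + 1, overexpression over control, for all 7855 features tested (box: quartiles and median, whiskers: central 90%), the 28 meiotic genes tested and 3 lists of related genes, with 1 circle per gene and a bar at each median. The medians lie at -0.01, 0.02, -0.06, -0.07 and -0.07, and c(3)G, at 0.39, is the meiotic gene farthest to the right.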

How the data were processed

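Ovary polyA RNA was sequenced from stranded TruSeq libraries in 6 samples, per the labels' protocols. The authors deposited 1 table with TPM per sample, 1 column each and 0 value columns without a sample, per the file headers. The submitters' processing notes name STAR; the genome build, annotation and counting method are not given in the sources used here. The authors' deposited table also holds their own group comparison, with columns for log2 fold change, p-value and FDR; its tool is not named. The deposited positions of all 32 members equalled those in the Ensembl annotation of BDGP6.54, which supplied the exons.

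From the deposited TPM, log2(TPM + 1) was fitted with limma 3.58.1 in R 4.3.3 (lmFit, eBayes with a mean-variance trend, group as the only term, all 6 samples) over the 7855 features whose mean TPM was 1 or more. The Benjamini-Hochberg adjustment of the two-sided p covered all of them, with 0.05 as the threshold. Such fold changes understate low genes. On simulated data with the real spread, the fit recovered 68.5%, 90.5% and 96.5% of 200 features shifted by 0.5, 1 and 2 on the log2 scale, with normal and independent errors. Of the features called there, 5.52%, 2.69% and 6.76% were false. The real fit called 22 features, and the median SE was 0.097 for the tested members against 0.077 for all tested features. The recovered shares therefore do not give the power for the members. Tables and plots used Python 3.11.15 with pandas 2.3.3 and matplotlib 3.10.9. TPM is not a count, so no count test was run.

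Members and lists were chosen with earlier results of these data known. Members are named in order of role; 1 of the 32 is counted but not reported here. Per-sample values go to members with a p or FDR under 0.05 or groups that do not overlap, to the most and least abundant of each role and to paralogues or genes sharing a locus; some others are given too. In related lists the 3 genes with the smallest p are named. Of 105 listed genes, Pch2 and Exo1 were matched to no row and were not analysed here, and 3 were found by identifier.

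The labels give same-numbered samples the same batch, which pairs them; deviations from the group means correlated at -0.06, -0.06 and 0.21 for numbers 1, 2 and 3, against -0.02 for other pairs. The alternatives were a pseudocount of 0.1, no filter, a minimum mean TPM of 5, scaling by a mean of log ratios trimmed by 30% at each end, the replicate block, no trend, and leaving out each sample.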

Additional observations from a re-analysis of the deposited data

How the results depend on the processing

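In all 12 alternatives, 0 members changed, and the smallest adjusted p of a member ran from 0.523 to 0.9996. The count over all features was 22 in the reported fit, 13 with no filter on low values, and between 11 (without control replicate 1) and 27 when single samples were left out; the cause was not tested. With the replicate block 16 features changed, among them 0 members and 0 genes of the related and marker lists. Sam-S stayed past the threshold in that fit. The members' median log2 fold change lay between -0.04655 and 0.04475 when single samples were left out, and it was -0.04 over the 23 members left at a mean TPM of at least 5. Sam-S stayed between 1.58 and 1.64. Reversal of sign was assessed for the 28 members tested in the reported fit, and not for the 4 under 1 TPM. Under settings that keep all samples 0 of these 28 reversed, while 10 did in fits without 1 sample. Their ranges over those fits were -0.03948 to 0.1945 for mei-W68, -0.0448 to 0.3506 for vilya, -0.04786 to 0.3931 for cona, -0.08066 to 0.1605 for solo, -0.2013 to 0.05198 for spn-D, -0.1269 to 0.08668 for okr, -0.1129 to 0.03854 for Brca2, -0.008772 to 0.08536 for mus312, -0.06581 to 0.05056 for Blm and -0.05156 to 0.04353 for lok. Over the same fits c(3)G ran from 0.22 to 0.49 and c(2)M from 0.17 to 0.28. Without the depth, noise in the 4 genes under 1 TPM cannot be set against counting error.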
